A study of Mus musculus with 3 samples.

Results

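The immediate early transcription factors examined here were Fos and Fosb, Jun, Junb and Jund, Atf3, Ier2 and Egr1. They were chosen by name and matched to the gene symbols of the deposited tables, and all 8 were found among the 51912 genes listed. Their unique molecular identifiers (UMIs, tags that count captured transcripts) were taken from scRNA-seq of sorted mouse intestinal epithelium, with 2 libraries from Arid3a cKO mice (VillinCreERT2, Arid3a fl/fl) and 1 library from WT mice (VillinCreERT2 without the floxed alleles). The Villin promoter limits the recombinase to the intestinal epithelium, and tamoxifen activates it. Mice of both genotypes carried VillinCreERT2, were given tamoxifen at 8 to 10 weeks of age and were harvested 1 month after the first injection. Crypts were released with EDTA, dissociated with collagenase and dispase, and sorted for live cells that were Epcam+, CD45- and CD31-.

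Immediate early genes are transcribed without new protein synthesis after growth factors, injury or other stress reach the cell, and their transcripts are short-lived. The Fos and Jun proteins pair through leucine zippers to form AP-1, which binds TGA-containing sites in DNA, and only the Fos proteins need a Jun partner to do so. Atf3 belongs to the same basic leucine zipper family and is induced by many kinds of stress. Egr1 is a zinc-finger factor and Ier2 a small nuclear regulator, both induced together with AP-1. In the intestinal epithelium, AP-1 acts downstream of growth factor signaling in crypt cells, and these genes are also known to respond while a tissue is taken apart into single cells.

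Because the members rose and fell together from cell to cell, as described below, the DNA just upstream of their starts is shown for those with a motif match. RefSeq promoters (GRCm38.p6) were given for 6 of the 8 genes (Ier2 and Egr1 have none here), and the 250 bases before each start were searched on both strands. The 150 bases nearest the start are printed 5′ to 3′ on the gene's strand, for Fos from chr12:85473740-85473889, for Fosb from chr7:19310046-19310195, for Jun from chr4:95052223-95052372, for Junb from chr8:84978749-84978898 and for Atf3 from chr1:191183334-191183483. The Fos stretch is on the plus strand and the others are on the minus strand. The RefSeq start used for Atf3 lies inside the gene span given below and so belongs to another transcript than the one that begins that span, and the start searched for Jund lies upstream of its span. Capitals mark letters that match a motif searched.
Fos: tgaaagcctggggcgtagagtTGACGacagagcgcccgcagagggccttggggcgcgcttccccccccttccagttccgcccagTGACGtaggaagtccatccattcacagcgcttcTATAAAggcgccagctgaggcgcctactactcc
Fosb: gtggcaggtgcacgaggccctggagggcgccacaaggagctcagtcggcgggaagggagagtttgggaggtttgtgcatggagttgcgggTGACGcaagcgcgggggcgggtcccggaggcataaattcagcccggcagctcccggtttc
Jun: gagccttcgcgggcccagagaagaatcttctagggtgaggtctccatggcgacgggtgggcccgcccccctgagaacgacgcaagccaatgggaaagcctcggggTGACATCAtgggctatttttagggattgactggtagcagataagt
Junb: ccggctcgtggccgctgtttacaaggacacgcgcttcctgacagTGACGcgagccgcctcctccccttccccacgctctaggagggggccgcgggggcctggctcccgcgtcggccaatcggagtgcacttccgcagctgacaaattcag
Atf3: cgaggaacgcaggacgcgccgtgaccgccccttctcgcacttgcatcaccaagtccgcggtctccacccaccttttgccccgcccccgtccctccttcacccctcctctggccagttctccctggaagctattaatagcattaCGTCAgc

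The TATA box TATAAA was found upstream of Fos alone among the 6, ending 28 bases before the start, and in 12.4% of all 32851 promoters of that length. The full cAMP response element TGACGTCA, to which factors of the Atf family bind, was found in none of the 6 (1.55% of all promoters). Neither the AP-1 site TGANTCA (6.75%), the Egr site GCGTGGGCG (0.536%) nor the CArG box of serum response factor (1.47%) was found in any of them. Sites further than 250 bases from the start were not searched. After the sequences had been seen, the core TGACG, which lies within TGACGTCA, and the degenerate form TGACNTCA, which includes TGACGTCA, were added. TGACG was found upstream of Fos (2 matches), Fosb, Junb and Atf3, and in 17.8% of all promoters, and TGACNTCA upstream of Jun and in 7.49%. In Atf3 the match lies on the opposite strand and reads CGTCA. A match of letters is a description of these windows and no evidence that a factor binds there.

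In the GENCODE M21 annotation of GRCm38, matched by gene identifier, all 8 are protein-coding genes. Fos (ENSMUSG00000021250) lies on the plus strand of chromosome 12 from 85473890 to 85477273, and Fosb (ENSMUSG00000003545) on the minus strand of chromosome 7 from 19302696 to 19310051. Jun (ENSMUSG00000052684) lies on the minus strand of chromosome 4 from 95049034 to 95052222, Junb (ENSMUSG00000052837) on the minus strand of chromosome 8 from 84974484 to 84978718, and Jund (ENSMUSG00000071076) on the plus strand of chromosome 8 from 70698949 to 70700616. Atf3 (ENSMUSG00000026628) lies on the minus strand of chromosome 1 from 191170296 to 191218039. Ier2 (ENSMUSG00000053560) lies on the minus strand of chromosome 8 from 84661331 to 84662852, and Egr1 (ENSMUSG00000038418) on the plus strand of chromosome 18 from 34859823 to 34864984.

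The deposited matrices held 25554 barcodes, of which 5594 (21.9%) had at least 1000 genes and at most 15% mitochondrial UMIs and were kept, between 1550 and 2134 per library. The limit on mitochondrial UMIs was exceeded by 66.4% and 75.6% of barcodes in the first and the second cKO library and by 79.2% of those in WT. Kept cells held 58169310 to 70922480 UMIs per library. As a check of the genotypes, Arid3a had 42 and 52 UMIs in the cKO libraries and 161 in WT. All 6 epithelial markers were detected in every library (6446 to 7452 CPM in sum, CPM being UMIs per 1000000 UMIs of the library), whereas 11 leukocyte markers summed to 4.78 CPM in Arid3a cKO 1, to 13.96 in the other cKO library and to 20.7 in WT, with Csf1r at 0 in Arid3a cKO 2 and WT. Endothelial markers summed to at most 0.567 CPM, with Cdh5 at 0 throughout, and fibroblast and muscle markers to at most 4.19, in Arid3a cKO 2. The libraries shared 11 to 18 barcodes pairwise, of which at most 2 were kept in both. Nothing in the labels says whether a library came from 1 mouse or several, so the spread between libraries may be partly technical.

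The kept cells formed 12 clusters, from which the members and all other listed genes had been left out as clustering features. By their markers they were named ISC-like (intestinal stem cells), TA-like (transit-amplifying), enterocyte-like (4 clusters, 1 of them with 62 cells and Ifit3 and Usp18, genes of the interferon response, among its leading genes), goblet-like, enteroendocrine-like (2 clusters), tuft-like and Paneth-like. A cluster of 758 cells, led by 1500035N22Rik, Ccl20 and Edn2, met the naming rule for no class and is called the unnamed cluster. Arid3a cKO 2 had 17 Paneth-like cells, below the minimum of 20 for a test.

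All 8 genes were abundant in the sorted epithelium, and in sum they were modestly higher in both cKO libraries than in WT. Together they took 0.536% of the UMIs of Arid3a cKO 1, 0.47% of those of Arid3a cKO 2 and 0.448% of those of WT. All levels below are in CPM. Over all kept cells their 95% counting intervals were narrow, the widest relative to its value being that of Atf3 in WT (207 to 214). These intervals cover counting error only. Levels within a class rest on fewer UMIs and are less exact. Because UMIs come from transcript ends, levels are compared between samples and not between genes.

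Of the Fos family, Fos was at 1179 CPM in Arid3a cKO 1 and 1033 in Arid3a cKO 2, against 961 in WT. Fosb was at 451 and 376 CPM in the cKO libraries and 443 in WT. Fos was above WT in both cKO libraries, whereas the Fosb level of WT fell between them. Of the Jun family, Jun was at 1156 and 1052 CPM in the cKO libraries and 1050.2 in WT. Junb was at 607 and 528 CPM against 479 in WT, and Jund at 646 and 642 against 562. All 3 Jun genes were above WT in both cKO libraries, Jun in Arid3a cKO 2 by less than its counting interval.

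Atf3 was at 395 CPM in Arid3a cKO 1 and 262 in Arid3a cKO 2, against 211 in WT, and had the widest relative spread between the 2 cKO libraries. Ier2 was at 439 and 416 CPM against 370.4 in WT, and Egr1 at 489 and 390.4 against 403. In all, 6 of 8 members were above WT in both cKO libraries and none was below it in both, with Fosb and Egr1 in between. Both cKO libraries were above WT for 30% of all genes tested and for 57.9% of genes with at least 100 CPM, and below it for 43.9% of all genes. A share of 6 in 8 is therefore near that of other abundant genes.

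No member passed the test over all kept cells. The edgeR quasi-likelihood test on UMI sums per library, with Benjamini-Hochberg adjustment over 16670 genes, called 116 genes (0.696%) at an adjusted p under 0.05, 40 higher and 76 lower in Arid3a cKO (1833 at an unadjusted p under 0.05). The lone WT library was assumed to vary like the cKO libraries. The log2 fold change was largest for Atf3 at 0.67 ± 0.19 (SE, adjusted p = 0.231 by edgeR). Junb was at 0.28 ± 0.10 (0.371), Ier2 at 0.24 ± 0.09 (0.373), Fos at 0.24 ± 0.11 (0.456) and Jund at 0.23 ± 0.09 (0.400). Egr1 (0.16 ± 0.12), Jun (0.11 ± 0.10) and Fosb (-0.06 ± 0.11) had adjusted p-values of 0.663 to 0.855. Atf3 was called by edgeR after removal of the cells whose doublet score was in the top 5% (adjusted p = 0.0345) and when no filter on low counts was used (3.78e-09), and by none of the other 6 tested alternatives.

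Because class shares differ between libraries, the genotypes were next compared within each class. Atf3 was higher in Arid3a cKO in ISC-like, TA-like, goblet-like and tuft-like cells by edgeR, and it was the only member called in any class. In ISC-like cells Atf3 was at 449 CPM in Arid3a cKO 1 and 245 in Arid3a cKO 2, against 192 in WT, a log2 fold change of 0.86 ± 0.17 (SE, edgeR adjusted p = 0.000417). In TA-like cells it was at 382, 209.9 and 175, a log2 fold change of 0.74 ± 0.17 (edgeR adjusted p = 0.00195). In both classes Arid3a cKO 2 lay nearer to WT than to Arid3a cKO 1.

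In goblet-like cells Atf3 was at 425 CPM in Arid3a cKO 1 and 303 in Arid3a cKO 2, against 210.4 in WT (log2 fold change 0.79 ± 0.20, edgeR adjusted p = 0.00800). Tuft-like cells, the chemosensory cells of the epithelium, had the lowest WT level of any class. Atf3 was at 175 and 117 CPM there against 34.9 in WT (2.07 ± 0.47, edgeR adjusted p = 0.00436), from 20 to 41 cells per library. These cells held only 410045 to 516103 UMIs of all genes per library, so the WT level rests on few Atf3 UMIs. The share of genes called in these comparisons was 1.01% in ISC-like (0.403% higher), 1.03% in TA-like (0.42%), 1.4% in goblet-like (0.738%) and 0.273% in tuft-like cells (0.0863%). These calls depended on the tool, since the DESeq2 Wald test called Atf3 in none of the 4 classes (adjusted p = 0.258 in goblet-like cells and 1.00 in the others). In ISC-like cells the call was also lost at a clustering resolution of 0.8 (edgeR adjusted p = 0.540), and in goblet-like cells with total UMIs as library size (0.0985).

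Atf3 was not called in enterocyte-like cells, where the libraries were close together at 319, 269 and 256 CPM (Arid3a cKO 1, Arid3a cKO 2 and WT, log2 fold change 0.19 ± 0.12, edgeR adjusted p = 0.518). It was at 418, 261 and 232 CPM in enteroendocrine-like cells (0.49 ± 0.28, edgeR adjusted p = 1.00). In these classes 1.9% and 0.533% of genes were called. In Paneth-like cells, not tested, it was at 109.5, 63.7 and 38.0 CPM. Atf3 was therefore above WT in both cKO libraries in all 8 groups of cells. The distance of Arid3a cKO 2 from WT was small in enterocyte-like and enteroendocrine-like cells. By cluster there were exceptions. In the smaller of the 2 enteroendocrine-like clusters Atf3 was at 329, 229 and 252 CPM. In the enterocyte-like cluster of 62 cells it was at 125, 248 and 220 CPM, with Arid3a cKO 1 below WT. Without Arid3a cKO 1, the log2 fold change of Atf3 was 0.36 in ISC-like, 0.28 in TA-like, 0.54 in goblet-like and 1.69 in tuft-like cells, and without Arid3a cKO 2 it was 1.22, 1.09, 1.00 and 2.35, in that order, with no test possible.

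**Figure D1:**
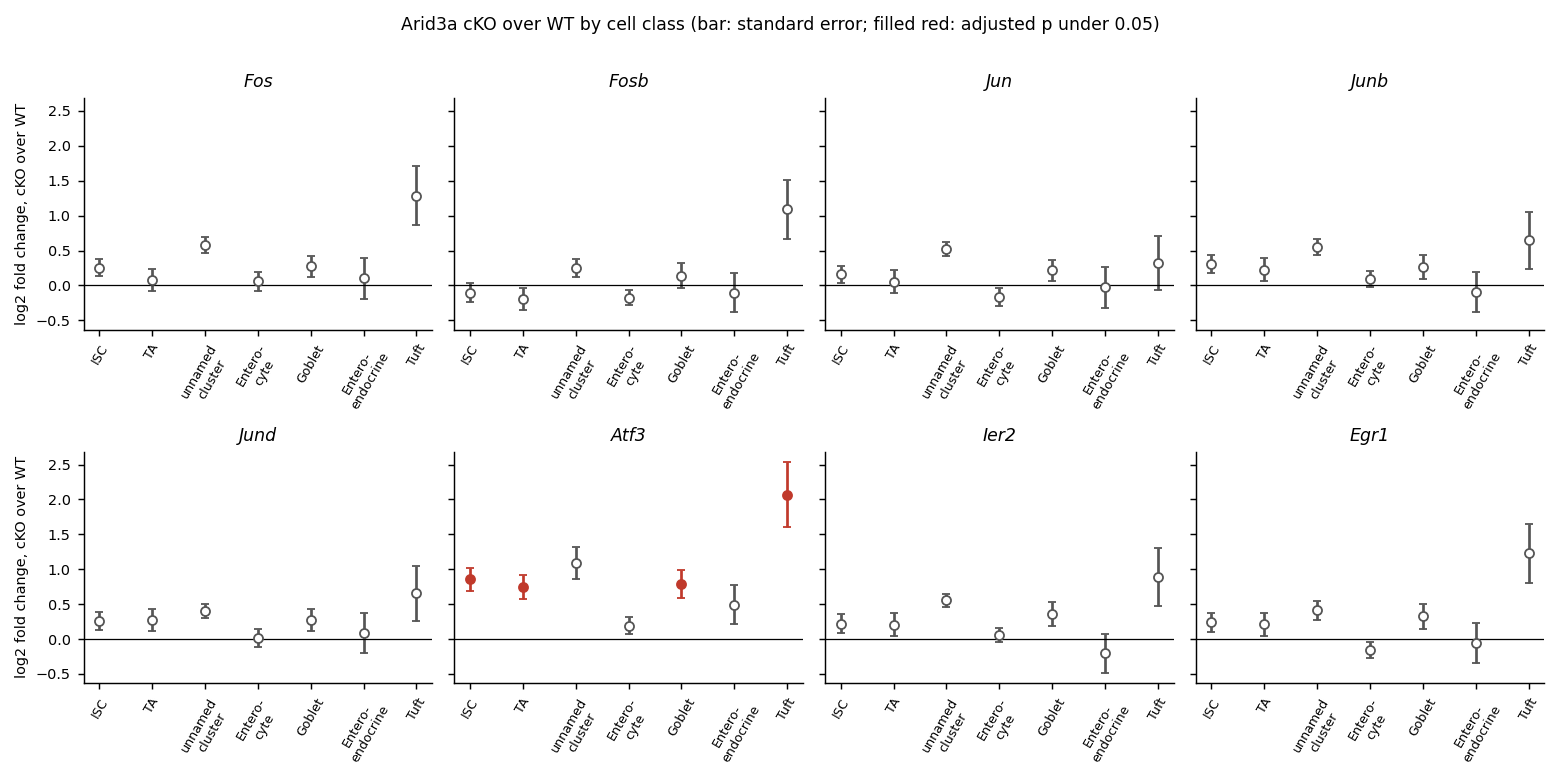
Log2 fold change of Arid3a cKO (2 libraries) over WT (1 library) for each member, by cell class on the horizontal axis. Points are edgeR estimates, bars are standard errors and filled red points have an adjusted p under 0.05. Only Atf3 has filled points, in ISC-like (0.86), TA-like (0.74), goblet-like (0.79) and tuft-like (2.07) cells, and in enterocyte-like cells all 8 points lie near 0.

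In the unnamed cluster the members were shifted in the same direction. All 8 were above WT in both cKO libraries there, against 32.2% of all genes tested and 41.1% of those with at least 100 CPM. Fos was at 1464 CPM in Arid3a cKO 1 and 1240.0 in Arid3a cKO 2, against 918 in WT, a log2 fold change of 0.58 ± 0.11. Jun was at 1248, 1146 and 848 (0.52 ± 0.10), and Atf3 at 617, 381 and 238 (1.09 ± 0.23). Both cKO libraries were separated from WT by more than they were from each other for Jun and Fos. No member was called, with edgeR adjusted p-values of 0.0657 for Ier2, 0.0798 for Jun, 0.0944 for Fos, 0.125 for Atf3 and 0.138 for Junb, where 0.306% of genes were called.

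That absence of calls in the unnamed cluster rested on the settings. With total UMIs as library size and at a clustering resolution of 0.8, 5 members (Fos, Jun, Junb, Atf3 and Ier2) were called higher by edgeR, and without the filter on low counts 7 were, all but Fosb. The DESeq2 Wald test called 0 members. This comparison was added after the data had been seen. In the unnamed cluster the summed members per cell had a long lower tail in WT. The 10th percentile there was 672 CPM, against 3221 in Arid3a cKO 1 and 3063 in Arid3a cKO 2, with medians of 4260.4, 6395 and 5608. Such low values were not limited to this cluster or to WT. For cKO libraries 1 and 2 and then WT, the 10th percentile was 473, 486 and 553 CPM in enterocyte-like cells. It was 1714, 962 and 753 CPM in goblet-like cells, in the same order. Whether the tail differs by genotype was not tested.

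In goblet-like cells all 8 members were above WT in both cKO libraries (33.8% of all genes, 43% of those with at least 100 CPM), and the same held in tuft-like cells (31.5% and 39.8%). Tuft-like Fos was at 326 CPM in Arid3a cKO 1 and 617 in Arid3a cKO 2, against 192 in WT. In this class Arid3a cKO 2 was the higher of the cKO libraries for all members but Atf3. In ISC-like cells 7 members were above WT in both, all but Fosb, which was at 670.3 and 496 CPM against 631 (32.7% of all genes, 48.2% of those with at least 100 CPM), and none was below it in both (36% of all genes). In TA-like cells Atf3, Ier2, Junb and Jund were (34.1% and 48.8%), none was below WT in both (32.1%), and for Fos, Fosb, Jun and Egr1 the WT level fell between the cKO libraries.

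In enterocyte-like cells the summed members differed little between genotypes. Summed members were at 3576 CPM in Arid3a cKO 1 and 3517 in Arid3a cKO 2, against 3561 in WT. Fos, Junb, Atf3 and Ier2 were above WT in both cKO libraries (38.1% of all genes, 52.9% of those with at least 100 CPM), and Jun, Fosb and Egr1 were below it in both (35.9% of all genes). Jun, for example, was at 712 and 740.5 CPM against 809 in WT, with a log2 fold change of -0.16 ± 0.13 (edgeR adjusted p = 0.638). In enteroendocrine-like cells Atf3 and Jund were above WT in both cKO libraries (35% and 40.7%), and Ier2 was below it in both (24.6%) at 436 and 434 CPM against 484. This class joins 2 clusters that differed in each of these directions. In the cluster of 175 cells led by Afp and Chga, Ier2 was above WT in both cKO libraries at 504 and 472 CPM against 462, as were Atf3 and Jund. In the cluster of 54 cells led by Ghrl, Ier2 was below WT in both at 329 and 391.5 CPM against 510, and the WT levels of Atf3 and Jund lay between those of the cKO libraries.

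Whether the genotype difference itself differed between ISC-like and enterocyte-like cells was tested with the class by genotype term. With 1 WT library this fit left few residual degrees of freedom, so its p-values rest largely on dispersion borrowed from other genes. Of 13102 genes, 65 (0.496%) had an edgeR adjusted p under 0.05 (0.275% with a positive and 0.221% with a negative term), and no member did. Atf3 came nearest, with a difference of 0.62 ± 0.16 on the log2 scale (ISC-like minus enterocyte-like, edgeR adjusted p = 0.0568, and 0.496 with total UMIs as library size). Egr1 was at 0.40 ± 0.15 (edgeR adjusted p = 0.422) and Jun at 0.33 ± 0.16 (0.719). The 8 estimates ranged from 0.07 for Fosb to 0.62 for Atf3, against a median of -0.008 over all genes tested. The share of all genes with a positive estimate was not counted, and the members also varied together from cell to cell.

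Some heat shock chaperones moved the other way in the same libraries. Of 13 tested over all cells, edgeR called 3 lower in Arid3a cKO and none higher, against 0.456% and 0.24% of all genes. The log2 fold changes of the 13 ranged from -1.80 to -0.03, with a median of -0.30. Hsph1, which helps Hsp70 to exchange nucleotides, was at 27.8 and 35.9 CPM in the cKO libraries against 113.6 in WT, a log2 fold change of -1.80 ± 0.14 (edgeR adjusted p = 0.000772). Hsp90aa1, the inducible Hsp90 (376, 401 and 692 CPM), fell by 0.79 and Dnaja1, an Hsp70 co-chaperone (202, 196 and 316 CPM), by 0.63 on the log2 scale (edgeR adjusted p = 0.00814 and 0.0136). Hsph1 was called lower by edgeR in each of the 7 groups of cells tested, from -1.45 in ISC-like to -2.48 in enterocyte-like cells, and the part of this difference in the member levels was not tested.

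**Figure D2:**
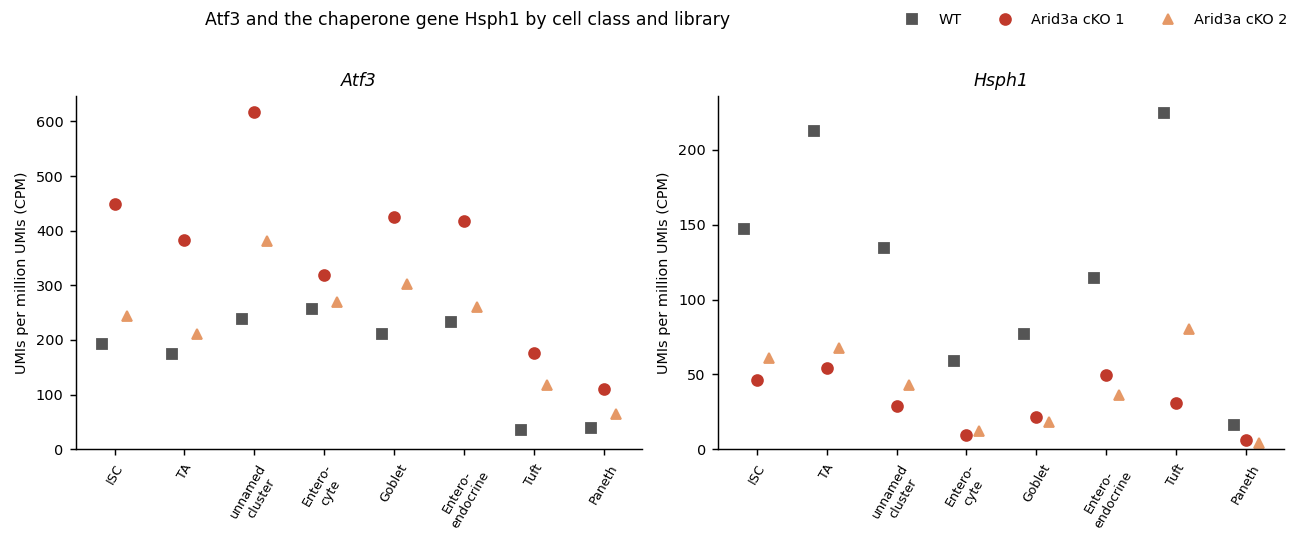
Atf3 (left) and Hsph1 (right) by cell class (horizontal axis) and library, in CPM. Each point is 1 library. WT has the lowest Atf3 and the highest Hsph1 in every class, and the WT Hsph1 level in enterocyte-like cells was 59.2 CPM against 9.45 and 12.03 in the cKO libraries.

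The members also differed in level between classes. By class, the sum was at a mean of 6271 ± 761 CPM (SD, n = 3 libraries) in ISC-like cells and nearly the same in enteroendocrine-like (6261 ± 802), TA-like (6143 ± 818) and goblet-like cells (5841 ± 824). The unnamed cluster was at 5404 ± 1132, enterocyte-like cells at 3552 ± 30.7, tuft-like cells at 3013 ± 1038 and Paneth-like cells at 1265 ± 423. Neighbors in this order of classes overlapped in their ranges except at 2 steps, between the unnamed cluster and enterocyte-like cells and between tuft-like and Paneth-like cells. By cluster, the sum was highest in the enteroendocrine-like cluster led by Afp, at 7636 ± 592 CPM (7238 to 8316), which overlapped no other cluster, whereas the one led by Ghrl, with a median of 51476.5 UMIs per cell against 16157, was at 4530 ± 906. Paneth-like cells, which fill their granules with antimicrobial peptides, had the lowest mean of all 8 members, and their libraries have 17 to 34 cells. Their median was 119501 to 177412 UMIs per cell, so a low CPM there need not mean few member UMIs per cell.

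The order differed from gene to gene. Ier2 had means of 194 CPM in enterocyte-like cells (188 to 199.5 over the libraries), 619 ± 56.3 in ISC-like and 645 ± 71.8 in TA-like cells, and neither range overlapped that of enterocyte-like cells. Fosb was at 245 ± 18.2 CPM in enterocyte-like, 599 ± 91.2 in ISC-like and 653 ± 111 in TA-like cells. By class, Egr1 was highest in enteroendocrine-like cells at 771 ± 136 CPM and Jund in goblet-like cells at 896 ± 106, but both ranges overlapped that of the class below. By cluster, Egr1 was at 1075 ± 75.3 CPM in the enteroendocrine-like cluster led by Afp (988 to 1121), which overlapped no other cluster, and at 397 ± 171 in the one led by Ghrl. Jund was also highest in the cluster led by Afp, at 948 ± 86.9 CPM, and overlapped goblet-like cells. Atf3 alone had its highest mean in the unnamed cluster, at 412 ± 191 CPM, and each of its neighbors in the order of classes overlapped the next. That mean pools both genotypes. In WT, Atf3 was highest in enterocyte-like cells at 256 CPM, with the unnamed cluster at 238. By cluster, the enterocyte-like cluster led by Ms4a18 had a mean of 406 ± 57.7 CPM.

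**Figure D3:**
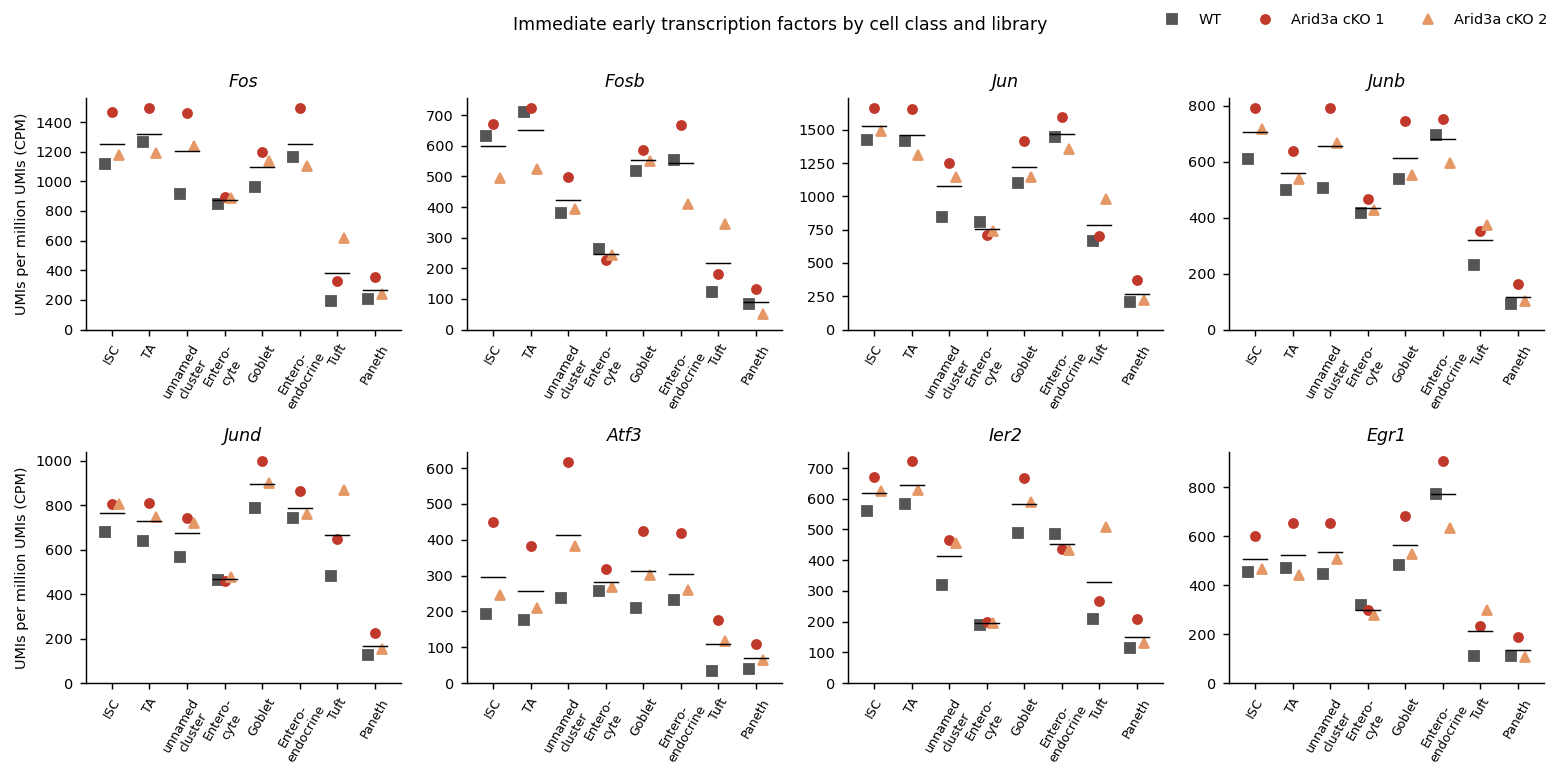
Level in CPM of each member by cell class (horizontal axis) in the 3 libraries. Points are libraries and black lines are means over the 3 libraries. For most members ISC-like, TA-like, goblet-like and enteroendocrine-like cells are high and tuft-like and Paneth-like cells low, and enterocyte-like Ier2 sits between 188 and 199.5 against 559.5 to 672 in ISC-like cells.

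Each class was tested against enterocyte-like cells with the library as a block. Most genes differ between such classes, so that of 14291 genes 77.3% were called for ISC-like (39.6% higher, 37.7% lower), 77.1% for TA-like (40% higher, 37.1% lower), 68.1% for goblet-like (36.7% higher), 69.1% for enteroendocrine-like (34.4% higher, 34.8% lower), 51.1% for tuft-like cells (26.6% lower) and 53.9% for the unnamed cluster (23.8% higher). A call alone therefore says little about a member. Fold changes between classes depended on the scaling. With the trimmed mean of M-values (TMM) the median over all genes was -0.04 to 0.12, and with total UMIs it was 0.33 to 0.79. Values below are on the TMM scale.

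Ier2 was higher than in enterocyte-like cells in 5 of 6 comparisons, by a log2 fold change of 1.28 in goblet-like, 1.12 in TA-like, 1.097 in ISC-like, 0.68 in the unnamed cluster and 0.47 in enteroendocrine-like cells (edgeR adjusted p of 1.7e-08 to 0.0074), and it stayed higher in all 5 with total UMIs, while the enteroendocrine-like call was lost without the library block (0.0524). Fosb was higher in goblet-like (0.88), TA-like (0.79) and ISC-like cells (0.71, edgeR adjusted p of 6.02e-05 to 0.000486), also with total UMIs. Jun was higher in the same 3 classes by 0.33 to 0.44, calls that were lost without Arid3a cKO 1 (0.21 to 0.34, edgeR adjusted p of 0.0608 to 0.240) and in TA-like cells also at a clustering resolution of 0.8 (0.963). Egr1 was higher in goblet-like (0.60), enteroendocrine-like (0.58) and unnamed cells (0.42), and Jund in goblet-like cells (0.64). The call of Egr1 in the unnamed cluster was lost without Arid3a cKO 1 (0.26, edgeR adjusted p = 0.270) and without the library block (0.0870).

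Atf3 went against this direction. On the TMM scale it was lower than in enterocyte-like cells by 0.61 in ISC-like, 0.85 in TA-like and 0.72 in enteroendocrine-like cells (edgeR adjusted p of 4.82e-06 to 0.000315). With total UMIs these values were -0.04, -0.24 and 0.05 and none was called, so this direction holds relative to the median gene and not relative to all UMIs. Without the library block the 3 calls were lost as well (edgeR adjusted p of 0.0699 to 0.224), and without WT the ISC-like value was -0.41 and still called. In TA-like cells Junb was lower by 0.26 (edgeR adjusted p = 0.0373), but higher by 0.35 with total UMIs (0.00446), and the call was lost without the library block (0.186), without Arid3a cKO 1 (0.0618) and without Arid3a cKO 2 (0.0955). Tuft-like cells were lower for 6 members, Atf3 at -2.20, Fos at -1.99, Egr1 at -1.25, Junb at -1.20, Fosb at -0.94 and Jun at -0.68. Of these, Fosb and Jun were at -0.22 and 0.04 with total UMIs and were no longer called. Fosb there was at -1.43 without Arid3a cKO 2 and at -0.59 without WT, and was called in both.

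Within the enterocyte-like cells the members were unevenly spread. Summed members were at 4450.0, 3911 and 4139 CPM (Arid3a cKO 1, Arid3a cKO 2 and WT) in the cluster led by Ms4a18, at 3210.2, 3540.5 and 3322 in the cluster led by Dnase1 and Cubn, and at 2849, 2971 and 3240.5 in the cluster led by Akp3 and S100g. Atf3 followed the same division, with 368 to 472 CPM in the Ms4a18 cluster and 199 to 242 in the other 2. In each of these 3 clusters Jun and Egr1 were below WT in both cKO libraries, and in no other cluster of the 12 were both.

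Levels also moved with the share of mitochondrial UMIs, a sign of RNA quality. To see beyond the limit, barcodes with at least 500 genes were binned, and levels were scaled to non-mitochondrial UMIs (non-mitochondrial CPM). Jun was at 1233, 1102 and 1112 CPM (Arid3a cKO 1, Arid3a cKO 2 and WT) in barcodes with up to 5% and at 1730.0, 1810.0 and 1973 in those with 25 to 50%. Fosb went from 477, 378 and 474 to 558, 661 and 645 between these bins, and Ier2 from 504, 461 and 439 to 299.9, 315 and 337. So Jun and Fosb were higher and Ier2 lower in the bin of 25 to 50% than in the first bin in every library, while the median UMIs per barcode were 8015 to 8474 against 32061.5 to 37944. Above 50%, Jun was at 1429, 909 and 1525.

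Atf3 moved with mitochondrial share in opposite directions in WT and Arid3a cKO 1. In WT it went from 201 CPM in barcodes with up to 5% to 375 in those with 25 to 50%, while in Arid3a cKO 1 it went from 419 to 346 and in Arid3a cKO 2 from 266 to 334. The cKO libraries were thus above WT in the 3 bins up to the limit and in that of 15 to 25% (344, 322 and 312), and below it in the bin of 25 to 50%. Within ISC-like cells, Atf3 was above WT in both cKO libraries in each of 3 bins below the limit, at 468, 256 and 190.3 up to 5%, at 486, 246 and 226 from 5 to 10% and at 451, 299.7 and 196 from 10 to 15%. The last of these bins held 7 cells of Arid3a cKO 2. Within enterocyte-like cells, Arid3a cKO 2 was below WT up to 5% (358, 286 and 307). Both cKO libraries were above WT there from 5 to 10% (326, 281 and 257) and from 10 to 15% (316, 296 and 276). In neither class did the WT level rise steadily over these bins.

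**Figure D4:**
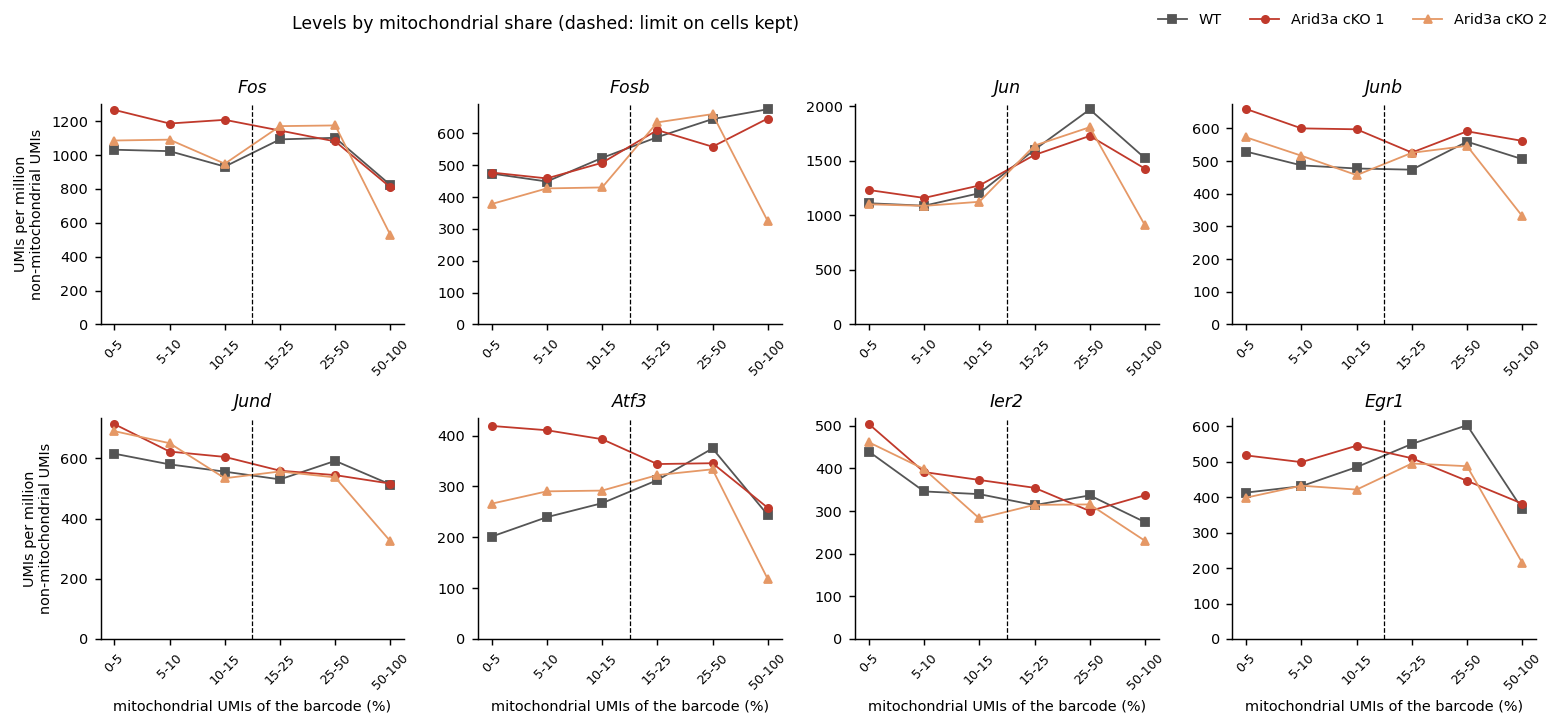
Member levels in non-mitochondrial CPM by bin of mitochondrial share (horizontal axis, percent of a barcode's UMIs) in the 3 libraries, over barcodes with at least 500 genes. The dashed line is the limit of 15% on kept cells. Jun rises to 1730.0 to 1973 in the bin of 25 to 50%, and the Atf3 lines of cKO and WT meet above the limit.

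From cell to cell the 8 genes varied together. Within 16 groups of at least 100 cells, each of 1 library and 1 class, the mean Pearson r of log2 levels between pairs of members ranged from 0.50 (Jund with Atf3) to 0.81 (Fos with Jun), with a median of 0.65. Each member also followed the sum of the other 7, with a mean r of 0.86 for Jun and Fos, 0.81 for Egr1, 0.79 for Fosb, 0.76 for Junb, 0.70 for Ier2 and 0.69 for Jund and Atf3. Over 5328 ranked genes, the mean r with the summed members had a median of 0.02 and a 95th percentile of 0.14. The ranking took genes with a mean of at least 20 CPM, far below the level of every member, and no set matched in level was compared. These are descriptions across cells, which share a library, and the summed members had an r of -0.25 to 0.13 with log2 UMIs and of -0.14 to 0.16 with mitochondrial share.

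The 10 other genes most like the summed members across cells included Zfp36 (mean r 0.71), Btg2 (0.70), Klf6 (0.63), Hbegf (0.59), Rhob (0.58), Pnrc1 (0.51), Ccnl1 (0.48), Dusp1 (0.46) and Trib1 (0.44). Zfp36 encodes a protein that marks AU-rich transcripts for decay, Btg2 an antiproliferative factor, Hbegf a ligand of the EGF receptor and Dusp1 a phosphatase that switches off MAP kinases. The lowest single group was at 0.33 for Zfp36 and at 0.09 for Hbegf. Over the 24 sums of library and class, which also differ in composition, the genes closest to the summed members were Eml4 (r 0.96), Ptgr1 (0.95), Gm43362 (0.95), Ei24 (0.95) and Lmna (0.94), none of which was among the 10.

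**Figure D5:**
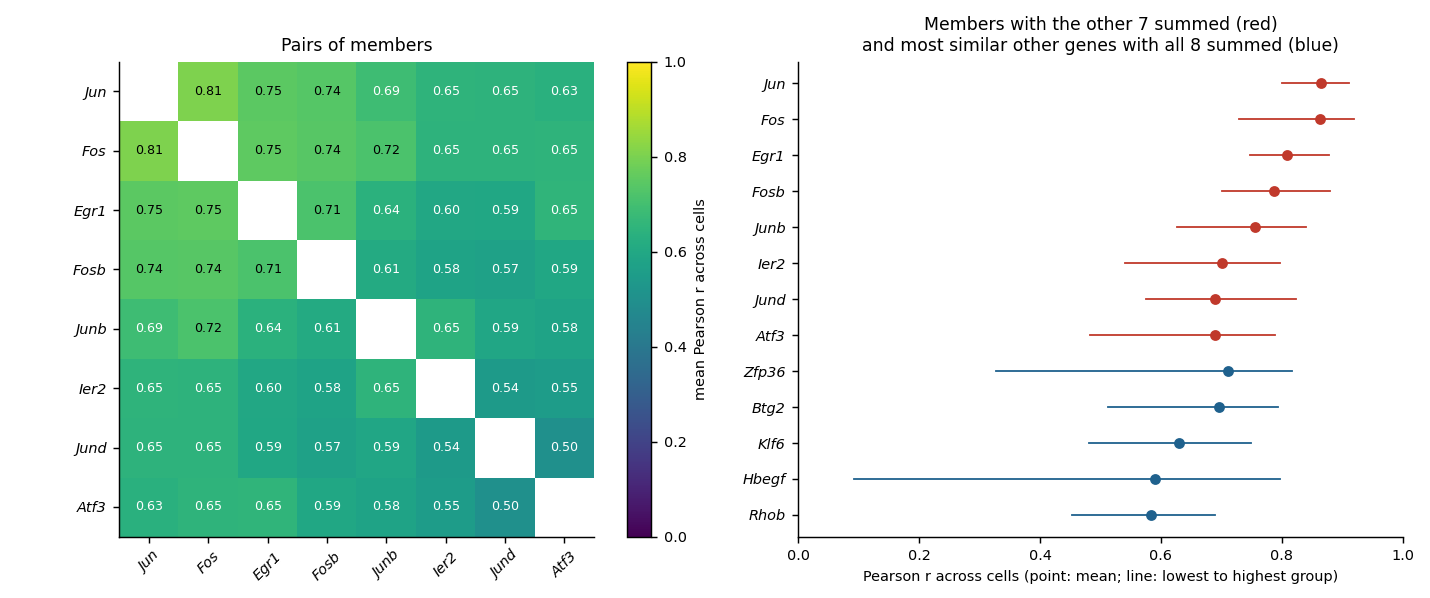
Mean Pearson r across cells over 16 library and class groups. Left, pairs of members, from 0.50 to 0.81. Right, each member with the sum of the other 7 (red) and the 5 other genes most like the summed members (blue), with lines from the lowest to the highest group.

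Other genes of the pathway were counted from lists. Of 28 other immediate early genes tested over all cells, none was called and 24 had a positive log2 fold change, with a median of 0.17 against -0.003 over all genes and 0.24 for the members. Of 20 feedback regulators, none was called and 16 were positive (median 0.23). The 17 other AP-1 and bZIP partners tested had a median of 0.04 and the 18 upstream kinases and serum response factors one of -0.07, again with none called. Largest in size among these were Fosl1 (0.91 ± 0.41) and Elk3 (1.11 ± 0.61), with edgeR adjusted p-values of 0.464 and 0.544.

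By class, all calls on these lists were higher in Arid3a cKO. In enterocyte-like cells, where 0.697% of genes were called higher and 1.2% lower, Klf2, Nr4a1 and Phlda1 were called at 0.87 to 1.45 on the log2 scale, as was Errfi1, an inhibitor of the EGF receptor that was at 87.3 and 93.7 CPM against 55.9 in WT (log2 fold change 0.69 ± 0.10, edgeR adjusted p = 0.00405). In goblet-like cells (0.738% higher, 0.657% lower) Dusp5, Gadd45g and Phlda1 were called at log2 fold changes of 0.67 to 0.72. In ISC-like cells Fosl1, another AP-1 subunit of the Fos family, was at 6.10 and 3.36 CPM against 1.80 in WT (1.43 ± 0.39, edgeR adjusted p = 0.0433), and Csrnp1 was called at 1.01 ± 0.28 (0.0468). Klf2 was called in the unnamed cluster at 51.0 and 45.9 CPM against 19.8 in WT (1.32 ± 0.15, edgeR adjusted p = 0.0055). No gene of any list other than Atf3 and heat shock chaperones was called in TA-like, tuft-like or enteroendocrine-like cells.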

How the data were processed

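The values are whole UMI counts for each gene in each barcode, as deposited, which the authors made with CellRanger (version 5.0 per the file headers) from 10x 3′ libraries and did not normalize. The submitters' processing notes list the builds GRCh38 and hg19 without a role, and the mouse build and annotation used for these single-cell libraries are not given in the sources used here, the methods naming Ensembl GRCm38 for the study's other assays. Of the 51912 mouse gene identifiers, 51719 (99.6%) are in GENCODE M21, from which coordinates were taken.

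Groups came from the GEO labels, 2 Arid3a cKO libraries and 1 WT library. Barcodes with at least 1000 genes and at most 15% mitochondrial UMIs were kept, and doublets scored by Scrublet (scanpy 1.11.5) marked 30, 34 and 46 cells, which were left in. Libraries were integrated in Seurat 5.3.0 (R 4.3.3) on 3000 features, with 30 components and a resolution of 0.3, leaving out the members and all listed genes. Clusters were named from marker genes, at least 3 among the top 50 genes or, failing that, at least 3 that were 1.5 times higher than elsewhere. How markers were scored was decided with the clusters in view, and the tuft-like cluster kept its name despite a low UMI count since its markers led it. CPM are UMIs per 1000000, with exact Poisson intervals for counting error.

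UMI counts were summed per library, and per library and class with at least 20 cells in each library. They were tested with the quasi-likelihood test of edgeR 4.0.16 (filterByExpr, TMM), adjusted by Benjamini-Hochberg over all genes tested and called at an adjusted p under 0.05. DESeq2 1.42.0, other scalings, filters, limits on cells and clusterings were the alternatives. P-values and standard errors rest on the spread between these libraries, with the dispersion of each gene moderated toward that of other genes. Correlations across cells used log2 CPM with 1 UMI of the median cell as pseudocount. The members, the gene lists and the tests were chosen with earlier results of these data known. Named genes were the 8 members, list genes that were called or at most 4 a list with the largest changes, and the 10 genes most like the summed members, of which 1 is not reported here.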

Additional observations from a re-analysis of the deposited data

Results flagged for a closer look

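Some members were above WT in both cKO libraries in one class and below it in both in another. These differences between classes are given as differences of log2 fold changes, Arid3a cKO over WT, and were not tested unless a p is given. Fosb was lower in enterocyte-like cells, with differences of -0.31 against goblet-like, -0.42 against unnamed and -1.26 against tuft-like cells, and in 2 of the 4 enterocyte-like clusters it was below WT in both cKO libraries, against 3 of 4 for Jun and for Egr1. Jun was lower in enterocyte-like cells as well, with differences of -0.38 against goblet-like, -0.49 against tuft-like and -0.69 against unnamed cells. Against ISC-like cells the difference of Jun was -0.32, and the interaction test did not call it (edgeR adjusted p = 0.719).

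Egr1 showed the same direction, with differences for enterocyte-like cells of -0.48 against goblet-like, -0.57 against unnamed and -1.39 against tuft-like cells, not tested, and of -0.40 against ISC-like cells, which the interaction test did not call (edgeR adjusted p = 0.422). Ier2 was lower in enteroendocrine-like cells, with untested differences of -0.26 against enterocyte-like, -0.41 against TA-like, -0.42 against ISC-like, -0.56 against goblet-like, -0.75 against unnamed and -1.09 against tuft-like cells. The direction of Ier2 in enteroendocrine-like cells was that of the cluster of 54 cells led by Ghrl (log2 ratios to WT of -0.63 and -0.38), whereas in the cluster of 175 cells led by Afp both cKO libraries were above WT (0.13 and 0.03). Tuft-like libraries held 20 to 41 cells.

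On the other lists, 3 genes were called by the edgeR interaction test, their genotype difference differing between ISC-like and enterocyte-like cells. The limit given above for that fit applies to them. Hsph1 had a difference of 1.03 and Hsp90ab1, the constitutive Hsp90, one of 0.71, both being less reduced in ISC-like cells. Klf2, a Krüppel-like factor, had a difference of -0.78 (edgeR adjusted p = 0.0448), being higher in Arid3a cKO in enterocyte-like cells.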

How the results depend on the processing

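No paired analysis was possible because the labels give no pairs of libraries and there is only 1 WT library. Over all cells, 91 of 96 member values were counted as the same as in the main fit, as were 300 of 336 by class. The same held for 219 of 288 values in contrasts of classes and for 8 of 8 interaction values. These counts do not show that every sign was kept, and genotype differences with 1 library left out had no p. Fosb over all cells was at -0.0642 in the main fit and reached 0.0454 with 1 cKO library left out. With equal weight for each class its mean log2 ratio was 0.0303. The cause of the changes below was not tested.

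Over all cells, 116 genes were called, but 354 without the cells of highest doublet score, 60 with DESeq2 size factors and 677 without the filter, with 1 member (Atf3) called in the first and last of these. By class, the Wald test of DESeq2 called 85 genes in enterocyte-like (240 by edgeR), 15 in enteroendocrine-like (57), 12 in goblet-like (155), 23 in ISC-like (133), 26 in TA-like (132), 2 in tuft-like (19) and 18 in unnamed cells (35), and 0 members in each. Total UMIs gave 380 genes in enterocyte-like, 57 in goblet-like (0 members) and 110 in unnamed cells (5 members). No filter gave 536, 24 and 253 in enterocyte-like, enteroendocrine-like and unnamed cells (7 members in the last). A resolution of 0.8 gave 0 in enteroendocrine-like, 31 in ISC-like (0 members) and 94 in unnamed cells (5 members). The interaction test called 65 genes, and 20 with total UMIs.

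Against enterocyte-like cells, total UMIs raised the members called from 3 to 7 in enteroendocrine-like, from 4 to 7 in ISC-like and from 2 to 8 in unnamed cells, and without the library block 1, 3 and 1 were called in enteroendocrine-like, TA-like and unnamed cells. Leaving out 1 library gave 3 to 6 members in TA-like and 1 to 5 in unnamed cells, the fewest without Arid3a cKO 1. Total UMIs reversed enteroendocrine-like Fos (0.51), Junb (0.65), Jund (0.75) and Atf3 (0.0483), goblet-like Atf3 (0.0774), ISC-like Fos (0.51), TA-like Fos (0.59) and Junb (0.35), tuft-like Jun (0.0422), Jund (0.49) and Ier2 (0.72), and the genotype difference of Jun in enteroendocrine-like cells (0.0236). A resolution of 0.8 reversed enteroendocrine-like Jund (0.00065), ISC-like Fos (0.0529), TA-like Jund (-0.17) and Egr1 (-0.16) and tuft-like Ier2 (0.0209), as did the fit without a block (0.0207). None of these was called in the main fit except enteroendocrine-like Atf3, TA-like Junb and tuft-like Jun. With 1 library left out, class contrasts not called in the main fit also changed sign. They ranged from -0.0107 to 0.0939 for goblet-like Fos and from -0.435 to 0.233 for tuft-like Ier2. In TA-like cells they ranged from -0.0973 to 0.0386 for Fos, from -0.0562 to 0.107 for Jund and from -0.00017 to 0.282 for Egr1. In unnamed cells they ranged from -0.109 to 0.215 for Fos, from -0.0543 to 0.332 for Jun and from -0.206 to 0.331 for Atf3. Genotype differences not called in the main fit changed sign as well. Fosb ranged from -0.189 to 0.0454 over all cells and from -0.328 to 0.0843 in ISC-like cells. Enterocyte-like Jund ranged from -0.0456 to 0.0705. The same held for TA-like Fos, Jun and Egr1 and for enteroendocrine-like Fos, Fosb, Jun, Junb and Egr1.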
